A study of Mus musculus with 23 samples.

Results

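The mismatch repair genes Msh3, Msh6, Mlh3, Pms1 and Pms2 were followed in marrow of irradiated mice before and after leukemia. The 5 genes were taken by symbol from the deposited array values, with the probe set of highest mean used for each symbol, and are 5 of 19938 gene symbols measured. Each of them had 1 probe set that carried its symbol alone. All 23 samples came from mice that had received a single dose of 2 Gy at 2 months of age, and no unirradiated sample was analysed. Leukemic samples came from 10 Pax5+/- and 3 wild-type (WT) mice. Samples called preleukemic were pro-B and pre-B cells of 7 Pax5+/- and 3 WT mice taken 3 weeks after the dose. WT leukemia 16 was not analysed here. Pax5+/- mice have a single functional allele of Pax5, which encodes the factor that fixes B lineage identity. The leukemic samples are pro-B cells in their titles and marrow in their descriptions. Strain, sorting and age at leukemia are not stated, so the leukemic and preleukemic stages also differ in time since the dose, and cell stage and age cannot be told apart from leukemia.

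Mismatch repair corrects mispaired bases and small loops that DNA polymerase leaves behind. MutS-type dimers find the error: dimers with MSH6 bind mispaired bases and the smallest loops, and dimers with MSH3 bind larger loops. MutL-type dimers then act, among which the one with PMS2 nicks the new strand, the one with MLH3 is best known from meiotic crossing over, and PMS1 has no settled role in mammals. The exonuclease EXO1, the sliding clamp PCNA and its loader, the single-strand binding protein RPA, DNA polymerase delta and DNA ligase 1 complete the repair. In mature B cells the pathway also acts on antibody genes, and mice without Msh6 or Pms2 are prone to lymphoma.

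Sequence around the gene starts is shown because it separates Msh3 and Msh6 from the MutL genes and because Pms1 and Pms2 each start beside an oppositely directed gene. RefSeq promoter windows of GRCm38.p6, from 250 bases before to 50 bases after the annotated start, were found for all 5 genes. They were searched on both strands for 4 spellings of the E2F site, TTTCCCGC, TTTCGCGC, TTTGCCGC and TTTGGCGC, which E2F factors bind in genes of DNA synthesis. At least 1 spelling occurred in the windows of Msh3 and Msh6 and in 0 of the windows of Mlh3, Pms1 and Pms2, against 2.26% of 32851 windows in the genome. In Msh3 a forward and a reverse spelling overlapped 202 bases before the start (chr13:92355185-92355214, minus strand). In Msh6 the match lay within the first transcribed bases (chr17:87975054-87975083, plus strand). Capitals mark the matched bases.
Msh3: gccgtcaagTTTGGCGCGAAAtcgcagccc
Msh6: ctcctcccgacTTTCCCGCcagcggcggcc

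The annotated starts of Pms1 and Ormdl1, a regulator of sphingolipid synthesis, and those of Pms2 and Aimp2, a scaffold of the tRNA synthetase complex, face away from each other across 63 and 61 bases. These stretches are shown because a single short region lies at both starts. Each held 2 matches to the CCAAT box (CCAAT on either strand, capitals). At least 1 match was present in 37.4% of all promoter windows, which are longer than these stretches. The windows of Msh6 and Mlh3 held 1 match each and that of Msh3 held 0.
Pms1 and Ormdl1 (chr1:53297032-53297094, plus strand): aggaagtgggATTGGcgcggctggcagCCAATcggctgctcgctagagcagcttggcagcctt
Pms2 and Aimp2 (chr5:143909840-143909900, plus strand): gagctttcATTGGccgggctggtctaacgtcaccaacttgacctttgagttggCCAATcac
The GC box, GGGCGG, had 4 matches in the Msh3 window, 5 in that of Msh6, 2 in that of Pms2, 1 in that of Pms1 and 0 in that of Mlh3, and occurred in 35.7% of all windows. A match shows that the letters are there and is no evidence of binding.

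The median log2 signal of an array was 6.06 to 6.2, and precision is set by how many arrays a group has. All 7 measured B lineage markers, among them Cd79a and Ebf1, lay above the array median in every sample, but 5 of the 7 fell in leukemia in Pax5+/- and 6 in WT mice (median log2 differences -0.84 and -1.71). Of 5 megakaryocyte markers 5 were higher in leukemia in both genotypes, as were 8 of 10 stroma markers in Pax5+/- and 7 of 10 in WT mice. In each genotype 1 stroma marker fell. Of 13 monocyte markers 9 and 5 were higher in Pax5+/- and WT leukemia, and of 14 neutrophil markers 11 and 1. Of 5 erythroid markers 1 was lower in Pax5+/- and 3 were higher in WT leukemia. Of 9 T cell markers 2 and 1 were higher, and of 9 NK cell markers 1 and 0. Over all genes tested 28% were higher and 36.5% lower in Pax5+/- leukemia, and 17.9% and 19.3% in WT leukemia. The part of these other cell types in the results below was not tested beyond the covariate fits given. The mean of the stroma list ran from 7.44 to 8.62 in leukemic and from 6.55 to 6.78 in preleukemic samples. The mean of 19 mitosis genes was 9.71 ± 0.34 (SD, n = 10) in Pax5+/- leukemias and 8.45 ± 0.24 (SD, n = 7) before leukemia. WT preleukemic sample 20 stood apart from its group, with a mitosis mean of 9.84 against 7.88 and 8.02 in samples 18 and 19 and a neutrophil list mean of 10.6. WT leukemia 15 also stood apart, with Pax5 at 6.32 against 10.68 and 10.78 in WT leukemias 14 and 17. Its B lineage mean was 9.61 against 11.18 and 11.01, and its NK cell mean was 9.34 against 5.77 and 6.20. Judged by Xist and the Y-linked gene Eif2s3y, 3 of 3 WT leukemias and 0 of 3 WT preleukemic samples were female, so in WT mice stage and sex cannot be told apart. Among Pax5+/- mice the counts were 5 of 10 and 3 of 7. In such bulk samples fewer cells of a type and less RNA per cell cannot be told apart.

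Msh3, the subunit that recognises larger loops, was lower in every leukemia than in every preleukemic sample of either genotype. In the 10 Pax5+/- leukemias its log2 signal was 7.31 at the lowest, 7.81 at the median and 8.01 at the highest. In the 7 Pax5+/- preleukemic samples it ran from 8.87 through a median of 9.02 to 9.24. The WT leukemias 14, 15 and 17 held 7.81, 7.76 and 7.66, and the WT preleukemic samples 18, 19 and 20 held 8.95, 8.97 and 8.69. The ranges did not overlap, and the 2 stages were 0.68 apart at their nearest samples, Pax5+/- leukemia 1 and WT preleukemic sample 20.

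**Figure D1:**
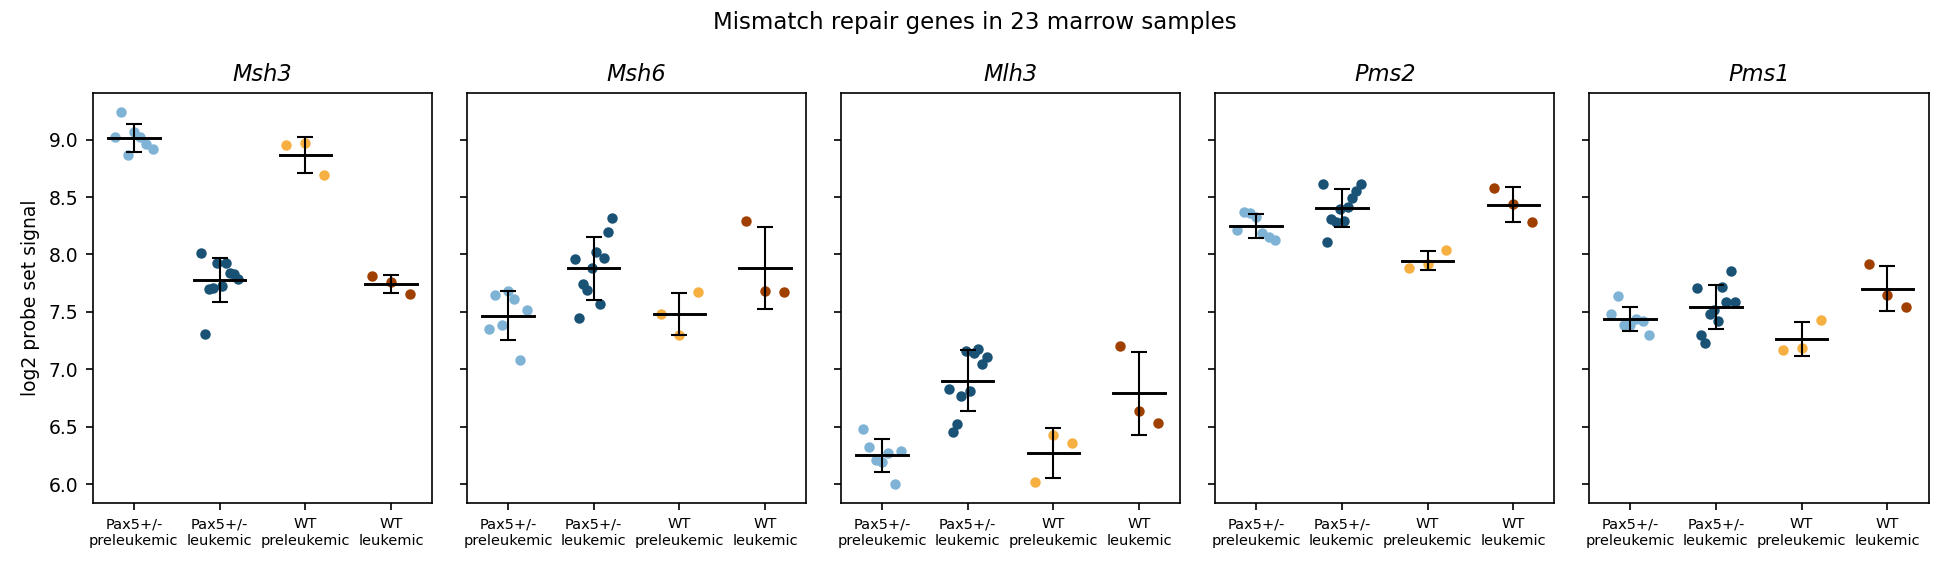
Log2 probe set signal of the 5 mismatch repair genes (vertical axis) in the 4 groups (horizontal axis). Each point is 1 sample, the long line is the group mean and the bars are 1 SD, with n = 7, 10, 3 and 3 from left to right. Msh3 drops from 8.69 or more before leukemia to 8.01 or less in leukemia, while the means of the other genes lie higher in leukemia. Levels of different genes come from different probes and are not comparable.

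In Pax5+/- mice Msh3 fell from 9.01 ± 0.12 (SD, n = 7) to 7.78 ± 0.19 (SD, n = 10), a 2.36-fold fall (log2 difference -1.24, SE 0.08, limma adjusted p = 5.76e-11). In WT mice it fell from 8.87 ± 0.16 (SD, n = 3) to 7.74 ± 0.08 (SD, n = 3), which was 2.18-fold (log2 difference -1.13, SE 0.13, limma adjusted p = 2.55e-06). Among all 15542 genes tested its log2 difference stood at percentile 2.2 in Pax5+/- and 2.8 in WT mice. Separation of the stages within each genotype, downward in both and by a gap of any size, was seen in 8.26% of the genes tested.

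The fall of Msh3 was measured again beside the quantities that moved with it. With the mitosis mean as a covariate its log2 difference was -1.27 in Pax5+/- mice (limma adjusted p = 1.06e-06) and -1.16 in WT mice (adjusted p = 0.000193). With the first component of 65 markers of other cell types as a covariate it was -0.97 (adjusted p = 1.83e-05) and -0.86 (adjusted p = 0.0012). The megakaryocyte and stroma markers in this component separate the stages, and the SE in Pax5+/- mice went from 0.08 to 0.13. With Xist as a covariate the log2 difference of Msh3 was -1.23 and -1.08, both passing. In sample 20, whose mitosis mean lay inside the range of the leukemias, Msh3 was the lowest of the preleukemic samples at 8.69 and still above every leukemia. Mouse numbers beginning with L cover 1 leukemic and 3 preleukemic Pax5+/- mice, and among these Msh3 was 7.79 in leukemia 10 and 8.96 to 9.07 in the others.

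Msh6, the subunit for mispaired bases, moved the opposite way by a smaller amount. It ran from 7.45 through a median of 7.92 to 8.32 in Pax5+/- leukemias and from 7.08 through 7.52 to 7.68 in Pax5+/- preleukemic samples. Of the 10 leukemias 8 lay above every preleukemic sample, and leukemias 2 and 7 lay inside their range. The mean rose from 7.47 ± 0.21 (SD, n = 7) to 7.88 ± 0.27 (SD, n = 10), which is 1.33-fold (log2 difference 0.41, SE 0.12, limma adjusted p = 0.0063). The rise did not pass after quantile normalization (log2 difference 0.27, adjusted p = 0.0517) or with the mitosis mean (0.13, adjusted p = 0.666) or the marker component as a covariate (0.38, adjusted p = 0.228). The mitosis mean itself separates the stages in Pax5+/- mice. The SE of Msh6 went from 0.12 to 0.19 with it and to 0.23 with the marker component. Over all genes 25.9% and 25.6% passed with these covariates, against 64.6% without. In WT mice Msh6 was 8.29, 7.68 and 7.67 in leukemia and 7.48, 7.30 and 7.67 before it, and the difference of 0.40 on the log2 scale did not pass (adjusted p = 0.129, 95% interval -0.03 to 0.82).

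Set against each other on the same array, Msh3 and Msh6 changed unequally. The log2 signal of Msh3 minus that of Msh6 was -0.10 ± 0.25 (SD, n = 10) in Pax5+/- leukemias and 1.55 ± 0.18 (SD, n = 7) before leukemia. The leukemias ran from -0.53 to 0.36 and the preleukemic samples from 1.39 to 1.88, with no overlap. The shift of -1.65 had an exact two-sided permutation p of 5.14e-05, the smallest that these samples allow, and 0.000103 adjusted over the 2 genotypes. Msh3 alone already separated these stages, and the mean of Msh6 lay higher in leukemia. The test therefore repeats the fall of Msh3 and is no separate evidence. How many gene pairs are separated in this way was not counted. In WT mice the 3 leukemias held -0.48, 0.08 and -0.01 and the 3 preleukemic samples 1.47, 1.67 and 1.02, a shift of -1.52. Its exact permutation p was 0.1, the smallest that 3 samples against 3 can give. The value 0 has no meaning of its own here, because the 2 probe sets differ in brightness, and only the shift is a measurement.

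**Figure D2:**
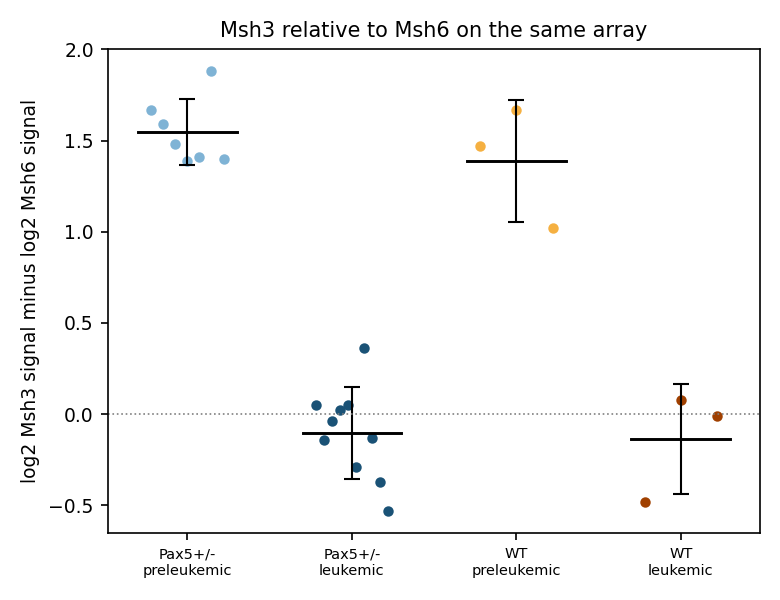
Log2 signal of Msh3 minus log2 signal of Msh6 on the same array (vertical axis) in the 4 groups (horizontal axis). Each point is 1 sample, the long line is the mean and the bars are 1 SD. Leukemic samples lie between -0.53 and 0.36 and preleukemic samples between 1.02 and 1.88.

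Mlh3, which encodes the MutL subunit known from meiosis, rose in leukemia. In Pax5+/- leukemias it was 6.45 at the lowest, 6.94 at the median and 7.18 at the highest, and in Pax5+/- preleukemic samples it ran from 6.00 through 6.27 to 6.48. Of 10 leukemias 9 lay above every preleukemic sample, and leukemia 2 lay inside their range. The mean rose 1.57-fold from 6.25 ± 0.15 (SD, n = 7) to 6.90 ± 0.27 (SD, n = 10), with an SE of 0.12 on the log2 scale and a limma adjusted p of 6.37e-05. Mlh3 was dim, within 1.12 of the array median on every array and below it on 2 of 23, so background can make its fold too small.

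In WT mice Mlh3 was 7.20, 6.64 and 6.53 in leukemia and 6.02, 6.43 and 6.36 before it. The groups did not overlap, and WT leukemias lay above every WT preleukemic sample in 21.1% of all genes tested. The rise of 1.43-fold passed (adjusted p = 0.0388). It did not pass without WT leukemia 14 (log2 difference 0.32, adjusted p = 0.233) or without WT preleukemic sample 18 (0.40, adjusted p = 0.174), after quantile normalization (adjusted p = 0.0539) or when only the WT groups were fitted (adjusted p = 0.111). With the mitosis mean as a covariate Mlh3 did not pass in either genotype (0.38, adjusted p = 0.125, and 0.24, adjusted p = 0.549). Over all genes 25.9% passed with this covariate in Pax5+/- and 12.5% in WT mice, against 64.6% and 37.2% without it. With the marker component Mlh3 did pass, at 0.88 in Pax5+/- (adjusted p = 0.00329) and 0.75 in WT mice (adjusted p = 0.0481).

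Pms2, the nicking subunit, differed little in Pax5+/- mice. It ran from 8.11 through a median of 8.41 to 8.61 in leukemia and from 8.13 through 8.21 to 8.37 before it, so the groups overlapped. The log2 difference of 0.16 had a 95% interval of 0.01 to 0.30 and just missed the threshold (limma adjusted p = 0.0564). In WT mice Pms2 was 8.58, 8.44 and 8.28 in leukemia and 7.88, 7.92 and 8.04 before it, without overlap. Upward separation of this kind in WT mice was seen in 21.1% of all genes tested. Pms2 rose there by 0.49 (SE 0.12) on the log2 scale (adjusted p = 0.00309). With the mitosis mean as a covariate the WT difference was 0.29 (adjusted p = 0.182), and with the marker component it was 0.56 (adjusted p = 0.0198). In Pax5+/- mice the first of these covariates turned the difference to -0.04 (adjusted p = 0.834). The Pax5+/- difference passed with array weights (0.19, adjusted p = 0.00669), with Xist as a covariate (0.17, adjusted p = 0.043), without the trend in limma's prior (adjusted p = 0.0478) and when any of leukemias 2, 3, 4 or 6 or preleukemic samples 12 or 13 was left out (adjusted p from 0.0153 to 0.0497).

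Pms1 showed a like pattern. In Pax5+/- mice it ran from 7.23 through 7.56 to 7.86 in leukemia and from 7.30 through 7.42 to 7.64 before it, and the difference of 0.11 did not pass (limma adjusted p = 0.27, 95% interval -0.07 to 0.28). In WT mice it was 7.92, 7.65 and 7.54 in leukemia and 7.17, 7.19 and 7.43 before it, a 1.36-fold rise that passed (adjusted p = 0.0164). The WT call was lost without sample 14, 18 or 19 (adjusted p from 0.0651 to 0.0986), after quantile normalization (adjusted p = 0.0518), when only the WT groups were fitted (adjusted p = 0.0735) and with the mitosis mean as a covariate (adjusted p = 0.534). The WT rise passed with the marker component (log2 difference 0.55, adjusted p = 0.0481) and with Xist as a covariate (0.56, adjusted p = 0.0116).

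**Figure D3:**
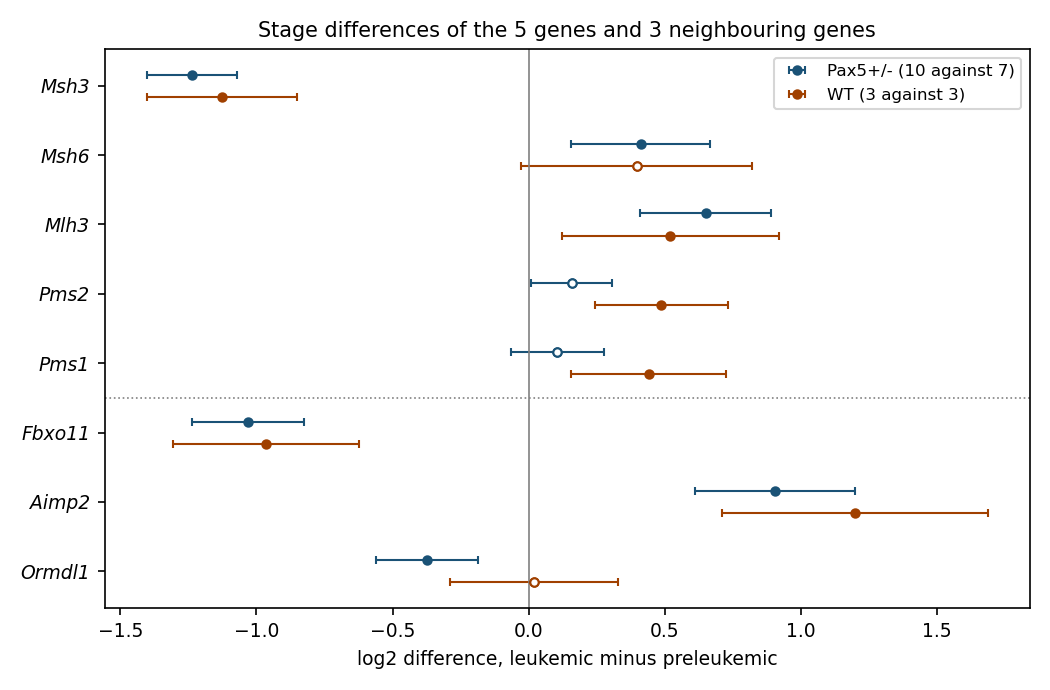
Fitted log2 difference, leukemic minus preleukemic (horizontal axis), of the 5 mismatch repair genes and, under the dotted line, 3 genes that neighbour Msh6, Pms2 and Pms1. Points are limma estimates and bars are 95% intervals, in blue for Pax5+/- mice and in brown for WT mice, and open points did not pass an adjusted p of 0.05. Msh3 stands at -1.24 and -1.13, the other 4 mismatch repair genes lie above 0, and Fbxo11 beside Msh6 lies at -1.03 and -0.96. Kcnk12, the other neighbour of Msh6, is not drawn (0.44 and 0.27).

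Counted together, 2 of the 5 genes rose, 1 fell and 2 did not pass in Pax5+/- mice, while 3 rose, 1 fell and 1 did not pass in WT mice. Without Pax5+/- leukemia 7 and WT preleukemic sample 20, the samples nearest the opposite stage on the first principal component, each gene had the same call, and Msh3 stood at -1.25 in Pax5+/- and -1.22 in WT mice. Differences by stage were common across the array. In Pax5+/- mice 64.6% of all genes tested passed, 28% higher and 36.5% lower, and in WT mice 37.2% passed, 17.9% higher and 19.3% lower. The median log2 difference of the 5 genes was 0.16 in Pax5+/- and 0.44 in WT mice, against -0.05 and -0.06 over all genes tested.

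The genotypes were then compared at each stage, which asks whether 1 copy of Pax5 goes with another level of these genes. None of the 5 genes passed before leukemia, where 0.624% of all genes did, or in leukemia, where 0.341% did. Before leukemia Pms2 was 8.25 ± 0.10 (SD, n = 7) in Pax5+/- and 7.95 ± 0.08 (SD, n = 3) in WT cells. Every Pax5+/- sample lay above every WT sample, and the share of all genes separated in this way was not counted. The log2 difference of 0.30 had a limma p of 0.00604 before and 0.253 after adjustment over all genes, and 0.0242 after adjustment with array weights. The other 4 genes differed between the genotypes before leukemia by -0.02 to 0.17 on the log2 scale, with limma adjusted p from 0.742 to 0.999. In leukemia the 5 differences ran from -0.16 to 0.11 (adjusted p from 0.995 to 1). The 95% intervals of the leukemia differences reached -0.19 to 0.26 for Msh3 and -0.34 to 0.34 for Msh6.

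The interaction asks whether the stage difference itself depends on genotype. It passed for 0.0965% of all genes and for none of the 5. For Pms1 and Pms2, which passed in WT mice alone, the interaction was -0.34 and -0.33 on the log2 scale (limma p of 0.0487 and 0.0254, adjusted p of 0.693 and 0.625), so a difference between the genotypes was not shown. For Msh3 the interaction was -0.11 (adjusted p = 0.958) and for Msh6 0.01 (adjusted p = 0.996). The stage comparisons of the genotypes share no samples, and the fit shares 1 estimate of the spread.

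By order of the group means, Msh3 was highest in Pax5+/- preleukemic cells, then in WT preleukemic cells, Pax5+/- leukemias and WT leukemias, and only the step between the stages exceeded the spread of its neighbours. For Pms2 the order was WT leukemias, Pax5+/- leukemias, Pax5+/- preleukemic and WT preleukemic cells, with 8.43, 8.41, 8.25 and 7.95. The first 3 of these overlapped, and WT preleukemic cells lay below each sample of the other groups. How many of all genes are separated in this way was not counted. Msh6 had the same mean of 7.88 in leukemias of both genotypes and 7.47 and 7.48 before leukemia.

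Among the 10 Pax5+/- leukemias the 5 genes tended to be high or low in the same samples. Leukemia 2 was lowest for Msh3, Msh6, Mlh3 and Pms2 and second lowest for Pms1, where leukemia 3 was lowest. Leukemia 2 also had the highest monocyte list mean of the 10 (9.45, the others 7.07 to 8.22). Its T cell, NK cell and stroma means were also the highest, and its neutrophil mean was the second highest (10.5). Its B lineage mean was the lowest at 10.65, close to the 10.67 of leukemia 4. Its erythroid mean was also the lowest (5.73), and its megakaryocyte mean of 9.67 lay inside the range of the group, 8.20 to 11.21. The part of these cells in its low values was not tested. All 10 pairs of the genes had a positive Pearson r, from 0.46 for Msh3 and Msh6 to 0.78 for Msh3 and Pms2, with permutation p from 0.00526 to 0.186. In a family of 25 relations, which also set each gene against the mitosis mean, an S phase mean and Pax5, none passed adjustment by Pearson's r (smallest permutation adjusted p = 0.0676). By Spearman's rho 7 of the 25 lay at the threshold, with an adjusted permutation p of 0.04996 that has a resampling error of 0.00133, so passing and missing could not be told apart. These were Msh3 with Mlh3 (rho = 0.77) and with Pms1 (0.76), Pms1 with Pms2 (0.77), Pms1 and Pms2 with the mitosis mean (0.78 and 0.76), and Msh6 and Pms2 with the S phase mean (0.81 and 0.82). Without the 2 samples farthest from the median of the first gene, r was 0.43 for Msh3 and Pms2, 0.85 for Msh3 and Mlh3, 0.83 for Pms1 and Pms2 and -0.08 for Msh3 and Msh6. The mouse numbers of these leukemias begin with 3 letters, held by 5, 4 and 1 samples, fewer than the 6 set as the least for a correlation, and no source says what the letters mark.

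Relations with Pax5 and with division genes did not pass by Pearson's r. Msh3 had r = 0.52 (rho = 0.31) with Pax5 over the 10 leukemias (permutation p = 0.133 and 0.38, adjusted p = 0.237 and 0.484), and r = -0.12 without the 2 samples of most extreme Pax5. Msh6 and Pms2 had r of 0.68 and 0.70 with the S phase mean (permutation p = 0.0272 and 0.0228, adjusted p = 0.0817 each), and 0.78 and 0.83 without 2 samples. Pms1 and Pms2 had r of 0.61 and 0.64 with the mitosis mean (permutation p = 0.0624 and 0.0502, adjusted p = 0.142 and 0.125). Msh3 had r = 0.31 with the S phase mean (rho = 0.38, permutation p = 0.33, adjusted p = 0.393).

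Genes listed with the later steps of mismatch repair rose more often than they fell. Of 17 genes of excision, resynthesis and ligation, all measured and tested, 9 rose, 2 fell and 6 did not pass in Pax5+/- mice, with a median log2 difference of 0.38, against 28% higher and 36.5% lower over all genes. In WT mice 12 rose, 2 fell and 3 did not pass, with a median of 0.71, against 17.9% higher and 19.3% lower. The list also held Ssbp1, for a mitochondrial single-strand binding protein, which passed in neither genotype (0.22 and 0.28). S phase genes rose in the same samples, 16 of 20 in Pax5+/- and 18 of 20 in WT mice, and 18 and 17 of 19 mitosis genes. The part of cell division in these rises was not tested.

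**Figure D4:**
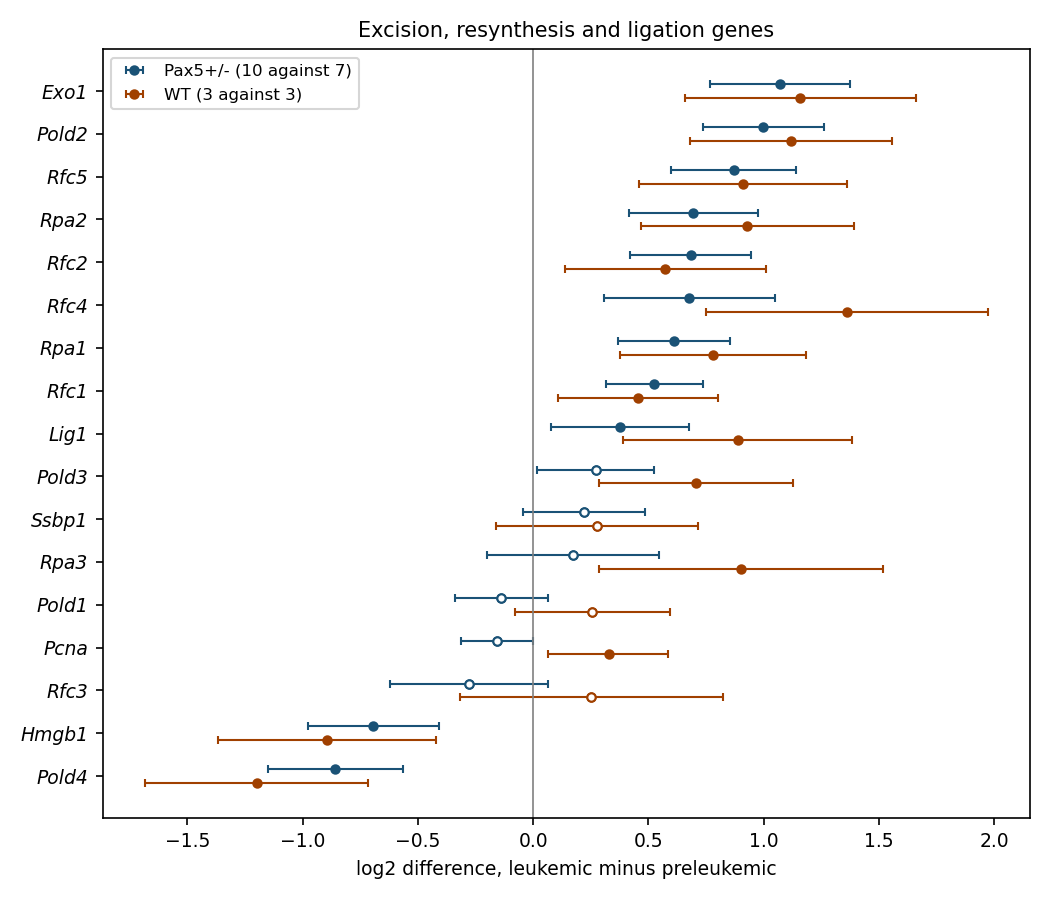
Fitted log2 difference, leukemic minus preleukemic (horizontal axis), of 17 genes of excision, resynthesis and ligation, ordered by the difference in Pax5+/- mice. Points are limma estimates and bars are 95% intervals, in blue for Pax5+/- mice and in brown for WT mice, and open points did not pass an adjusted p of 0.05. Exo1 and Pold2 lead the rises at 1.07 and 1.00 in Pax5+/- mice, and Hmgb1 and Pold4 lie lowest at -0.69 and -0.86.

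Exo1, the exonuclease that removes the faulty strand, ran from 7.32 to 8.48 with a median of 7.92 in Pax5+/- leukemias and from 6.65 to 7.03 with a median of 6.95 before leukemia, without overlap. Upward separation of this kind in Pax5+/- mice was seen in 11.7% of all genes tested. Exo1 rose 2.10-fold in Pax5+/- mice (log2 difference 1.07, SE 0.15, limma adjusted p = 2.63e-06) and 2.23-fold in WT mice (adjusted p = 0.000975). Msh3 and Exo1, which act in one pathway, thus differed from each other in direction, at -1.24 and 1.07 in Pax5+/- and -1.13 and 1.16 in WT mice. The clamp gene Pcna did not pass in Pax5+/- mice (log2 difference -0.16, adjusted p = 0.0737) and rose 1.25-fold in WT mice (adjusted p = 0.0457).

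Of the 5 clamp loader genes, Rfc1, Rfc2, Rfc4 and Rfc5 rose in both genotypes, by 1.44-fold to 1.83-fold in Pax5+/- mice, and Rfc3 passed in neither. Of the RPA genes, Rpa1 and Rpa2 rose in both genotypes (1.53-fold and 1.62-fold in Pax5+/- mice) and Rpa3 in WT mice (1.87-fold). The ligase gene Lig1 rose 1.30-fold and 1.85-fold.

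The subunit genes of DNA polymerase delta did not move together. Pold2, an accessory subunit, rose 2.00-fold in Pax5+/- and 2.17-fold in WT mice. Pold4, the smallest subunit, fell 1.81-fold (log2 difference -0.86, limma adjusted p = 2.56e-05) and 2.30-fold (adjusted p = 0.000514). The catalytic subunit gene Pold1 passed in neither (-0.14 and 0.26), and Pold3 passed in WT mice alone (1.63-fold, adjusted p = 0.00991). The only other gene of the list that fell was Hmgb1, a chromatin protein that can assist excision, by 1.62-fold and 1.86-fold.

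Of 8 genes of recruitment and related nucleases, 3 rose and 2 fell in each genotype, and they were the same genes. Over all genes tested 28% rose and 36.5% fell in Pax5+/- mice, and 17.9% and 19.3% in WT mice. Mcm8, a helicase of the MCM family, rose 1.76-fold in Pax5+/- and 2.15-fold in WT mice, the nuclease gene Fan1 rose 1.43-fold and 1.28-fold, and the uracil glycosylase gene Ung rose 1.45-fold and 1.43-fold. Setd2, whose histone mark on lysine of H3 draws MSH6 to chromatin in human cells, fell 1.26-fold (adjusted p = 0.00126) and 1.39-fold (adjusted p = 0.00796). Mbd4, a glycosylase for mispaired thymine, fell 1.22-fold and 1.69-fold. Mcm9, Mutyh and Smarcad1 did not pass in either.

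Of the meiotic genes measured, Msh4 and Hfm1 were dim on all arrays, with group means from 4.59 to 4.75, and were not tested. Msh5 varied widely, from 7.16 to 9.51 in Pax5+/- leukemias. It had a log2 difference of 0.45 in Pax5+/- mice (adjusted p = 0.171) and rose 2.60-fold in WT mice (adjusted p = 0.0284).

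Neighbouring genes shared the direction of the mismatch repair genes in some cases and not in others. Fbxo11, the neighbour of Msh6 and a ubiquitin ligase subunit that targets BCL6, fell 2.04-fold in Pax5+/- mice (limma adjusted p = 2e-08) and 1.95-fold in WT mice (adjusted p = 0.000149), while Msh6 lay higher. The stages of Fbxo11 did not overlap in either genotype, and 8.26% of all genes tested were separated downward in both. Aimp2, which faces away from Pms2 across the stretch printed above, rose 1.87-fold (adjusted p = 1.47e-05) and 2.29-fold (adjusted p = 0.000559), against 0.16 and 0.49 on the log2 scale for Pms2. Ormdl1, which faces away from Pms1, fell 1.30-fold in Pax5+/- mice (adjusted p = 0.00122) and did not pass in WT mice (log2 difference 0.02, adjusted p = 0.926). Rasgrf2, an exchange factor for Ras and a neighbour of Msh3, was higher in leukemia in both genotypes (limma adjusted p = 0.000243 and 0.0223). Its preleukemic values, 5.30 to 5.57, lay below every array median and are not shown to be above background, so no fold is given. Leukemia 2 (5.45) lay inside that range and WT leukemia 17 (5.62) just above it.

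Beside Mlh3, Acyp1 fell 1.4-fold in Pax5+/- mice and did not pass in WT mice, and Eif2b2 passed in neither. Kcnk12, on the other side of Msh6, rose 1.36-fold in Pax5+/- mice and did not pass in WT mice, as was the case for Msh6. Its log2 differences were 0.44 and 0.27, against 0.41 and 0.40 for Msh6. Beside Pms1, 1700019A02Rik was dim, with group means from 4.48 to 4.64, and was not tested.

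Once the 4 group means were subtracted, the genes whose values over the 23 arrays were most like those of each gene differed from member to member. Msh3 was nearest to Jakmip1 (r = 0.81), Ivd (0.80) and Carmil2 (0.80), and Msh6 to Hnrnpr (0.89), Bhlhb9 (0.86) and Bzw2 (0.85). Mlh3 was nearest to Rbm45 (0.86), Cep43 (0.84) and Poldip2 (0.84), Pms1 to Nrarp (0.88), 2810006K23Rik (0.86) and Cdca7l (0.85), and Pms2 to Akip1 (0.88), Recql (0.86) and Cep57l1 (0.84). Without subtraction the values for the same genes ran from 0.50 to 0.93. These r values are the highest of 15541 genes for each member over arrays that also share overall brightness, and are given as a description. None of the 5 genes was among the 3 nearest of another.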

How the data were processed

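Total RNA was extracted with Trizol and biotinylated with a WT labelling kit, per the labels' protocols. The deposited log2 values are probe set signals made with Transcriptome Analysis Console, per the submitters' processing notes; background correction, summarization and normalization are not given in the sources used here. Of 28944 probe sets, 21789 carried 1 symbol, 1621 several and 5534 none. Tests covered 15542 genes, the 5 members among them, whose signal passed the 30th percentile of the array on 3 or more arrays. One limma fit (version 3.58.1, R 4.3.3) held the 4 groups, with a two-sided moderated test (eBayes, trend). Genes with a p under 0.05 after Benjamini-Hochberg adjustment over the 15542 were called. The fit was tested on simulated data. Relations used 100000 permutations. One planned comparison is not reported here.

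The members, lists and tests were chosen with earlier results of these data known. Named genes were the 5 members, the lists of the pathway, the nearest protein-coding neighbour on each side and the 3 genes of highest r per member. Alternatives covered filters, priors, array weights, scaling, probe sets, covariates, mouse letters as a random block and each sample left out. After seeing the data, Pax5+/- leukemia 7 and WT preleukemic sample 20 were also left out together. Each Pax5+/- sample has a mouse number of its own; the WT source names are numbered too, and p-values measure the spread between these samples.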

Additional observations from a re-analysis of the deposited data

Results flagged for a closer look

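Msh3 in Pax5+/- leukemia 2 was 7.31 on the log2 scale and lay apart from the other 9 leukemias, which ran from 7.70 to 8.01. Its gap to the nearest sample was 0.557 of the range of the group. Of 10 such groups tested, chance would flag about 1 in 20. The same leukemia had the highest monocyte list mean of the 10, 9.45, and the lowest B lineage mean, 10.65 against 10.67 in leukemia 4. It also had the lowest erythroid mean, 5.73. The part of these cell types in the value was not tested. Without this sample the log2 difference of Msh3 in Pax5+/- mice was -1.18 in place of -1.24.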

How the results depend on the processing

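Msh3 fell in both genotypes under every alternative run: its log2 difference ran from -1.35 to -0.97 in Pax5+/- and from -1.22 to -0.86 in WT mice. Each member has 1 probe set, so the rules for averaging probe sets left its values as they were. Below, the mitosis mean separates the stages in Pax5+/- mice but not WT sample 20 from leukemia, array weights let single arrays count less, and the cause of each change was not tested. The megakaryocyte and stroma lists within the marker component separate the stages in both genotypes. Pax5+/- genes called by stage were 3984 with the marker component and 4018 with the mitosis mean, against 10034. WT genes called by stage were 2638 and 1936 with these covariates and 3537 when only the groups compared were fitted, against 5780. With 1 sample left out they ran from 3794 (without WT preleukemic 19) to 6902, with 3828 without sample 18. Genotype calls before leukemia were 444 with array weights, 231 with only the groups compared and 157 without Pax5+/- leukemia 7 and WT sample 20, against 97, and 40 (without sample 19) to 137 with 1 sample left out. Genotype calls in leukemia were 127 with array weights, 21 with Xist, 2 with the marker component and 1 with only the groups compared, against 53. With 1 sample left out limma gave 0 (without WT leukemia 15, with 565 genes at an unadjusted p under 0.05) to 160 (without 14), and 5 without 17. Interaction calls were 82 with array weights and 51 without the pair of samples, against 15, and 6 (without sample 19) to 98 (without 14) with 1 left out, with 24 without Pax5+/- leukemia 7, 9 without WT leukemia 15 and 36 without sample 20.

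Among the Pax5+/- stage differences Pms1 turned to -0.036 after quantile normalization and -0.163 with the mitosis mean, which also turned Pms2 to -0.036. Genotype differences near 0 changed sign, none of them passing. Before leukemia Msh6 was 0.054 with array weights, 0.001 with quantiles, 0.056 with Xist, 0.013 with the mitosis mean and 0.079 without the pair, and from -0.106 to 0.079 with 1 sample left out. Mlh3 there was 0.103, 0.036, 0.008 and 0.026 with weights, Xist, mitosis and without the pair, and from -0.144 to 0.061. In leukemia Msh3 was -0.063 with the marker component and from -0.007 to 0.087. Msh6 was 0.075 with weights, 0.002 with quantiles, 0.02 with median centring, 0.01 with the marker component, 0.037 with mitosis, 0.001 with the letter block and 0.034 without the pair, and from -0.105 to 0.205. Mlh3 ran from -0.018 to 0.317, and Pms2 was 0.002 with weights and ran from -0.104 to 0.046. The interaction of Msh6 was -0.132 with Xist and -0.044 without the pair, and from -0.09 to 0.22. Without the 2 samples farthest on the first measure, r among leukemias was -0.078 for Msh3 with Msh6 and, with Pax5, -0.117 for Msh3, -0.529 for Mlh3, -0.11 for Pms1 and -0.23 for Pms2.

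No paired analysis was possible because sample numbers run through the series and no 2 groups share one. How far signal lies over background is unknown in these values, which limits dim genes such as Mlh3.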
